A study of Mus musculus with 8 samples.

Results

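The 10 genes described here encode the core of the unfolded protein response, the program by which a cell adjusts protein folding in its endoplasmic reticulum (ER). They were taken by symbol from the count tables: Hspa5, Hsp90b1, Pdia4, Sdf2l1, Creld2, Herpud1, Dnajb9, Xbp1, Atf4 and Ddit3, 10 of 23212 listed genes. All 10 had enough counts to be among the 14493 genes tested. RNA was sequenced from whole perigonadal fat of 4 mice with an adipocyte-specific gene knockout (KO) and 4 wild-type mice (WT), matched for age and weight. All 8 mice were C57BL/6, were 20 weeks old and had eaten a 45% fat diet for 12 weeks from the age of 8 weeks, so the diet is shared by both groups. The deletion is limited to adipocytes, and the driver of the deletion is not given in the sources used here, whereas the RNA came from every cell of the tissue. Fewer cells of a type and less RNA per cell therefore cannot be told apart in any level below.

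In the ER, Hspa5 (BiP) holds 3 membrane sensors inactive until unfolded proteins draw it away. The kinase PERK (Eif2ak3) then slows translation and favours the transcription factor ATF4, which induces Ddit3 (CHOP). The nuclease IRE1 (Ern1) splices Xbp1 mRNA into a form that encodes an active factor. The third sensor, ATF6 (Atf6), is cut in the Golgi and induces chaperones. Fat cells secrete adipokines in quantity, and obesity is known to engage this response in adipose tissue. Counts per gene sum spliced and unspliced Xbp1 mRNA and do not measure translation or cleavage, so sensor activity itself was not measured.

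The ER chaperone genes share a promoter element, the ER stress response element (ERSE), to which ATF6 binds together with NF-Y. Each promoter in the RefSeq table (build GRCm38.p6; 250 bases before to 50 after the start) was searched on both strands for ERSE (CCAAT, then 9 bases of any kind, then CCACG), ERSE-II (ATTGG, then any base, then CCACG), the UPR element UPRE (TGACGTGG) and the core of the ATF4 element CARE (TGATGNAA). All 10 genes had a promoter in the table, and the start matched the first exon of the authors' annotation in 8 of them; it lay 326 bases upstream for Xbp1 and 71 bases upstream for Herpud1. ERSE was found in 3 of the 10 promoters (Hspa5, Hsp90b1 and Creld2) and in 39 of 32851 promoters in all, 0.119%. ERSE-II was found in Herpud1 alone among the 10 and in 0.0365% of all promoters. The other matches were none for UPRE, against 0.676% of all promoters, and 1 for CARE, in Herpud1, against 3.97%. ERSE and ERSE-II both end in CCACG, but no matched stretches overlapped in these genes. A match describes letters only and was not tested as a binding site. Only exact matches within the window were sought, so a gene without a match may still hold an altered or more distant element. For Xbp1 and Herpud1 the window ended before the first exon of the authors' annotation. The stretches show in which of the 10 genes a match was found. Capitals mark ERSE or ERSE-II, in the direction of transcription, and a stretch that begins with CGTGG is ERSE on the opposite strand.
Hspa5, chr2:34772005-34772063, plus strand: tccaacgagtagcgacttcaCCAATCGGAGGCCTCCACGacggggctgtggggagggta
Hsp90b1, chr10:86705513-86705676, minus strand: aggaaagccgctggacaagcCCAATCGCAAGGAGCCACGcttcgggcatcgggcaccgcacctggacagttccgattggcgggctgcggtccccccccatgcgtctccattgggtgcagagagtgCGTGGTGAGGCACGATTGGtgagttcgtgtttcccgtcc
Creld2, chr15:88819500-88819558, plus strand: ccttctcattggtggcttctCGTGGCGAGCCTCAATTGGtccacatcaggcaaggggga
Herpud1, chr8:94386357-94386407, plus strand: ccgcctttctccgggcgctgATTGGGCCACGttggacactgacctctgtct
The elements began 65 bases upstream of the RefSeq start in Hspa5, 212 and 107 bases upstream in Hsp90b1, 126 bases upstream in Creld2 and 52 bases upstream in Herpud1.

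Libraries held 46444435 to 50995667 counts in KO and 49389893 to 51431956 in WT. Levels are in CPM, which puts counts of all libraries on one depth, here with library sizes adjusted by TMM, a normalization that assumes most genes do not differ. Every one of the 10 genes had at least 523 counts in each library, so counting error was small beside the spread between mice. Adipocyte markers were high in all mice, with Adipoq at 3541 to 6750 CPM in KO and 4153 to 7110 CPM in WT. Libraries KO 2 and WT 3 stood apart from the others in genes of ciliated epithelium: Foxj1 was at 26.1 CPM in KO 2, at 7.97 CPM in WT 3 and at most at 0.287 CPM in the other 6. Library codes in the labels run in separate ranges for the genotypes; nothing says that these are batches, and an effect of them cannot be told apart from genotype.

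None of the 10 unfolded protein response genes differed between KO and WT fat beyond the spread between mice. With edgeR's quasi-likelihood test and Benjamini-Hochberg adjustment over all 14493 genes, 0 of 10 passed an adjusted p of 0.05, and the adjusted p of each was 0.9999; over all genes, 0.0138% passed. None had an unadjusted p under 0.05 (2.23% of all genes, 1.17% with KO higher and 1.06% with KO lower), the smallest being 0.227 for Pdia4, and DESeq2 and limma voom also called 0 of the 10. In every one of the 10 genes the KO and WT mice overlapped. Over all genes the groups were apart in 1.44%, and 0 of 10 lies near that share. Log2 fold changes ran from -0.18 to 0.17, 7 above 0 and 3 below, with a median of 0.071; of all genes 53.1% were above 0, with a median of 0.011. The count above 0 was 4 without KO 1 and 3 without WT 4, and the median of the 10 genes ran from -0.051 (without KO 1) to 0.13 (without WT 1), so both rest on single mice.

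**Figure D1:**
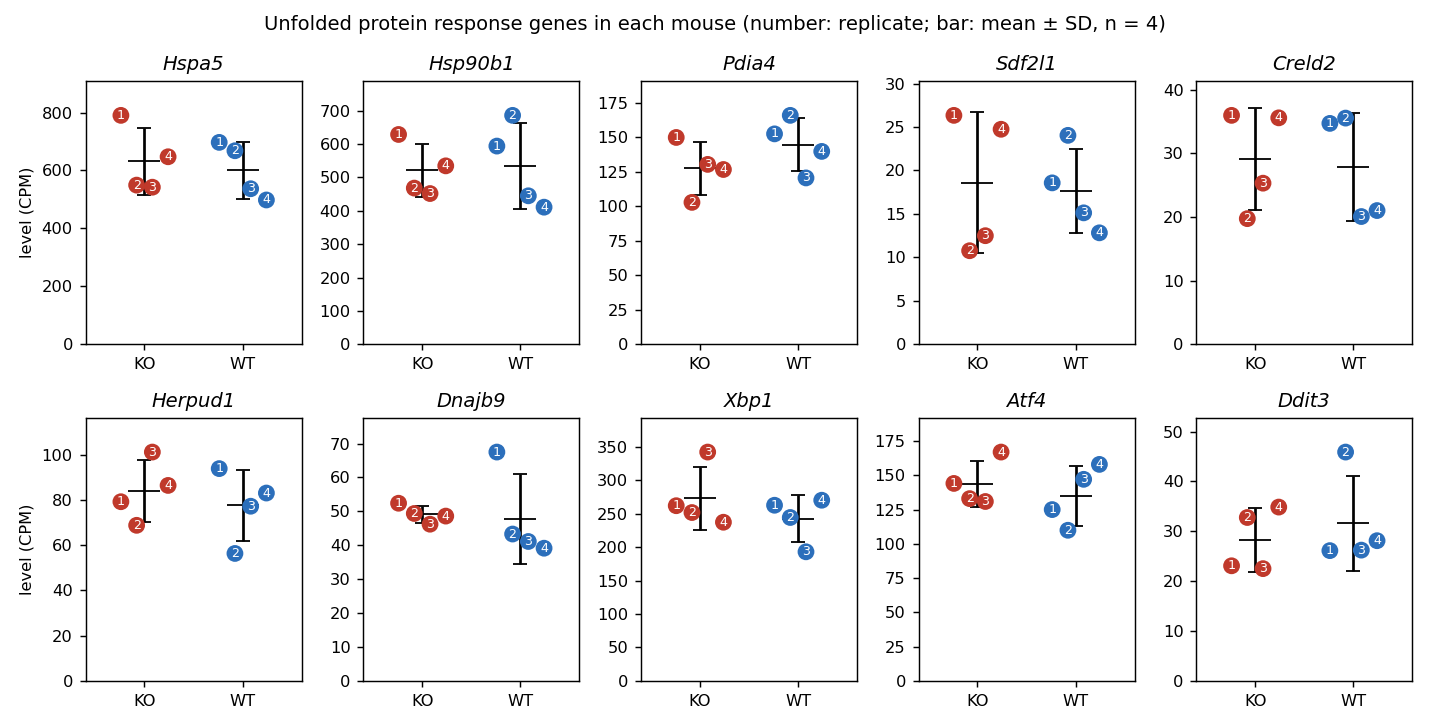
Level in CPM (vertical axes, from 0) of each of the 10 genes in 4 KO mice (red, left) and 4 WT mice (blue, right); numbers are replicates, the horizontal bar is the mean and the whiskers are 1 SD. The KO and WT mice overlap in every panel, and for Hspa5 KO mice lie at 542 to 790.3 CPM and WT mice at 498 to 697 CPM.

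The chaperones and folding enzymes of the ER lumen come first. Hspa5 (chromosome 2, 34772090 to 34776529 in mm10), the Hsp70 chaperone of the ER, was at 790.3, 549, 542 and 647 CPM in KO mice 1 to 4 and at 697, 668, 537 and 498 CPM in WT mice 1 to 4. KO 1 was the highest mouse and WT 4 the lowest, with 1.59-fold between them, and the remaining values interleaved. The means were 632 ± 116 CPM in KO and 600.0 ± 97.3 CPM in WT (SD, n = 4 each). KO over WT gave 0.076 on the log2 scale, with a standard error (SE) of 0.17 and a 95% interval of -0.31 to 0.46. In linear terms that interval spans 0.807-fold to 1.38-fold.

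Hsp90b1 (chromosome 10, 86690841 to 86705444), which encodes GRP94, the Hsp90 chaperone of the ER, was at 629, 468, 452 and 535 CPM in KO mice and at 594, 686, 445 and 411 CPM in WT mice. Both the highest and the lowest mouse were WT, so the KO values lay inside the WT range. Its log2 fold change was -0.036 (SE 0.19, 95% interval -0.47 to 0.40). Pdia4 (chromosome 6, 47796141 to 47813512), a disulfide isomerase that helps proteins to form correct disulfide bonds, was at 149.7, 102.7, 130.2 and 126.5 CPM in KO and at 152, 166, 120.4 and 139.6 CPM in WT. Its log2 fold change of -0.18 (SE 0.14, 95% interval -0.50 to 0.14) was the lowest of the 10, and the groups overlapped, with WT 3 below KO 1, KO 3 and KO 4. The authors' annotation gives Pdia4 14 exonic bases that Mir704 also covers, of 2481.

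Sdf2l1 (chromosome 16, 17130138 to 17132383), a cofactor of BiP and its J-domain partners, varied most between mice, 2.45-fold between the lowest and the highest. It was at 26.3, 10.8, 12.5 and 24.7 CPM in KO mice 1 to 4 and at 18.6, 24.0, 15.1 and 12.8 CPM in WT mice 1 to 4. KO 1 and KO 4 were above all WT mice and KO 2 and KO 3 below all of them, and the coefficient of variation was 43.55% in KO and 27.7% in WT. The log2 fold change was 0.0755 with a wide 95% interval of -0.66 to 0.81. Creld2 (chromosome 15, 88819646 to 88826681), an ER protein with isomerase activity that is secreted under stress, was at 35.9, 19.7, 25.3 and 35.55 CPM in KO and at 34.7, 35.5, 20.05 and 21.0 CPM in WT, a log2 fold change of 0.067 (95% interval -0.52 to 0.66). High and low mice were found in both genotypes.

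Herpud1 and Dnajb9 act in ER-associated degradation, which sends misfolded proteins to the proteasome. Herpud1 (chromosome 8, 94386500 to 94395358), which organises the ubiquitin ligase complex in the ER membrane, was at 79.2, 68.7, 101.1 and 86.4 CPM in KO and at 93.8, 56.3, 77.2 and 83.0 CPM in WT (log2 fold change 0.11, SE 0.17, 95% interval -0.28 to 0.50). Its lowest mouse was WT 2 and its highest KO 3. Dnajb9 (chromosome 12, 44205897 to 44210068), the J-domain protein ERdj4 that recruits BiP to IRE1 and to misfolded clients, was at 52.4, 49.4, 46.2 and 48.6 CPM in KO and at 67.5, 43.3, 41.1 and 39.1 CPM in WT. The 4 KO mice were close together, with a coefficient of variation of 5.18%, and lay above 3 of the WT mice and below WT 1. The log2 fold change was 0.041 with all mice (SE 0.17). Without WT 1 it was 0.26 (SE 0.089) and the groups no longer overlapped. The unadjusted p was then 0.0213 in edgeR's quasi-likelihood test, while the adjusted p over all genes was 1. In that fit 1.76% of all genes had an unadjusted p under 0.05. Over all genes, groups were apart in at least 328 genes in every fit without 1 mouse. For Dnajb9, WT 1 was the only WT mouse that was not below all KO mice.

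The transcription factors of the response also overlapped between genotypes. Xbp1 (chromosome 11, 5520967 to 5525872) was at 262, 252, 342 and 237 CPM in KO and at 263, 244, 193 and 270.1 CPM in WT. KO 3 was the highest mouse and WT 3 the lowest, and the other 6 lay between 237 and 270.1 CPM. The log2 fold change, 0.17 (SE 0.15, 95% interval -0.18 to 0.52), was the highest of the 10 with all mice. It was 0.044 without KO 3 and 0.076 without WT 3. Atf4 (chromosome 15, 80255184 to 80257541) was at 144, 133, 131 and 167 CPM in KO and at 125, 110.0, 147 and 158 CPM in WT (log2 fold change 0.091, SE 0.14, 95% interval -0.22 to 0.40). Its extremes were KO 4 and WT 2, and 3 of the KO mice lay within the WT range.

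Ddit3 (chromosome 10, 127290793 to 127296288), the factor CHOP that favours cell death under lasting stress, was at 23.1, 32.8, 22.5 and 34.9 CPM in KO and at 26.1, 45.9, 26.2 and 28.1 CPM in WT. WT 2 stood above the other 7 mice. The log2 fold change was -0.16 (SE 0.23, 95% interval -0.67 to 0.35) with all mice and 0.077 without WT 2. Ddit3 has 871 exonic bases, of which Mars, the methionyl-tRNA synthetase gene, also covers 68, so its counts are slightly less certain.

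**Figure D2:**
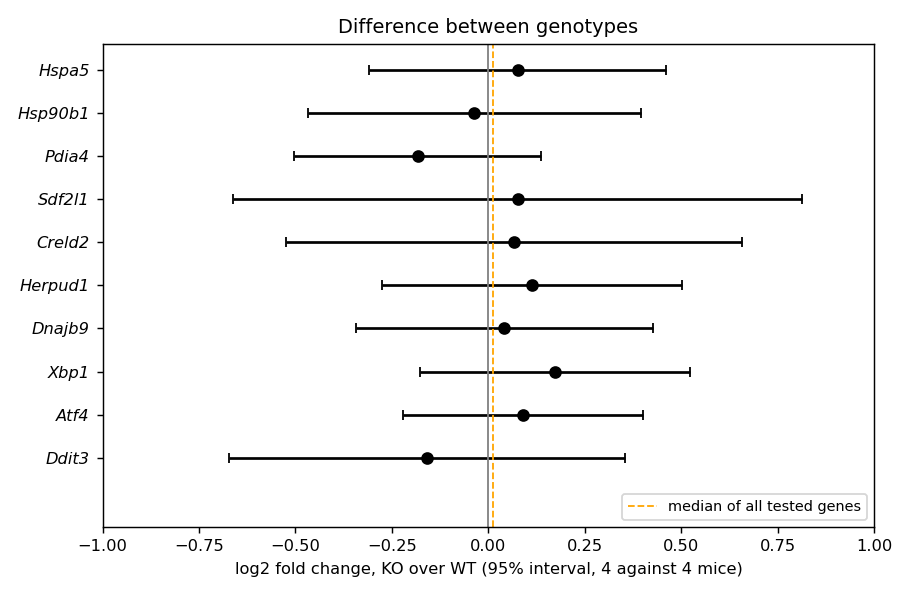
Log2 fold change of KO over WT (horizontal axis) for each gene, with its 95% interval from the quasi-likelihood fit of 4 against 4 mice; the grey line is 0 and the dashed line the median of all tested genes, 0.011. Every interval includes 0, and the intervals run from -0.67 to 0.81.

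Divided by exonic length, the order of levels was the same in the group means of KO and WT. Hspa5 was highest at 242 CPM per kb in KO and 229 CPM per kb in WT, followed by Hsp90b1 at 189 and 194, Xbp1 at 152 and 135 and Atf4 at 83.4 and 78.3 CPM per kb. Pdia4 followed at 51.3 and 58.2, Herpud1 at 44.8 and 41.5, Ddit3 at 32.5 and 36.3, Dnajb9 at 26.35 and 25.6, Creld2 at 21.35 and 20.4 and Sdf2l1 at 16.8 and 15.9 CPM per kb. The mRNA of the chaperone BiP was thus several times as abundant per length as that of CHOP, the factor of the terminal phase. Neighbours in this order kept it in 8 of 8 mice for Hspa5 over Hsp90b1, Xbp1 over Atf4 and Creld2 over Sdf2l1. Among neighbours, only Xbp1 and Atf4 had ranges over the 8 mice that did not overlap. Atf4 was above Pdia4, and Pdia4 above Herpud1, in 7 of 8 mice. Hsp90b1 and Xbp1 changed places in some mice (6 of 8 in this order), as did Herpud1 and Ddit3, Ddit3 and Dnajb9, and Dnajb9 and Creld2.

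The rest of the pathway was equally without a called gene. Of 16 sensors and switches of eIF2α phosphorylation, 4 lay above 0 on the log2 scale and 12 below, with a median of -0.015 and none called in either direction. The sensors themselves were at -0.017 for Eif2ak3, -0.0056 for Ern1 and -0.030 for Atf6. The 3 with the smallest p were Ppp1r15b, which directs dephosphorylation of eIF2α, at 120.5 ± 21.1 CPM in KO and 106 ± 8.02 CPM in WT, the kinase PKR (Eif2ak2), whose exons share bases with Gm6548, at 27.7 ± 4.45 and 30.3 ± 1.59 CPM in KO and WT, and Eif2s1, eIF2α itself, at 45.3 ± 5.26 and 49.2 ± 7.64 CPM in KO and WT (SD, n = 4 each). Unadjusted p was 0.204, 0.309 and 0.379 in edgeR's quasi-likelihood test.

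Of 20 other ER chaperones and folding enzymes, 9 were above 0 and 11 below, with a median of -0.0047. The smallest p belonged to the ER oxidases Ero1l, at 20.2 ± 1.54 CPM in KO and 22.1 ± 2.91 CPM in WT, and Ero1lb, at 8.28 ± 0.662 and 7.46 ± 0.756 CPM in KO and WT, and to Erp44, which retains them in the early secretory pathway, at 56.5 ± 4.27 and 60.6 ± 5.08 CPM in KO and WT. Of 20 genes of ER-associated degradation and translocation, 9 were above 0 and 11 below (median -0.0076). The ubiquitin-conjugating enzyme Ube2j1 was at 100.9 ± 5.20 CPM in KO and 113 ± 4.53 CPM in WT, with a log2 fold change of -0.16 (SE 0.080, unadjusted p = 0.0766 in edgeR's quasi-likelihood test, adjusted p = 0.9999). The retrotranslocation protein Derl2 was at 67.9 ± 4.07 CPM in KO and 60.9 ± 3.11 CPM in WT, and Herpud2 at 56.5 ± 1.36 CPM in KO and 62.6 ± 3.97 CPM in WT.

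Of 24 targets of ATF4 and the integrated stress response, 14 were above 0 and 10 below, with a median of 0.035, and none was called. Atf3, a stress-induced factor that is also an immediate early gene, was at 33.2, 5.97, 6.84 and 68.0 CPM in KO mice 1 to 4 and at 7.28, 11.4, 16.1 and 5.93 CPM in WT mice 1 to 4. KO 1 and KO 4 were above all WT mice and the other 2 KO mice near the lowest WT value, so that a log2 fold change of 1.49 (SE 0.75) had an unadjusted p of 0.0811 in edgeR's quasi-likelihood test. The value was 0.59 without KO 4, 1.82 without KO 2 (unadjusted p = 0.0278 in the same test) and 0.88 with limma voom (unadjusted p = 0.310). KO 1 and KO 4 were also the 2 KO mice with the highest macrophage markers, whose summed level was 1406 and 2210 CPM there, 461 and 481 CPM in KO 2 and KO 3, and 350 to 977 CPM in WT; their part in the Atf3 values was not tested. Cebpb, a factor of adipogenesis and inflammation, was at 33.2 ± 9.42 CPM in KO and 25.1 ± 3.75 CPM in WT, and the cystine transporter gene Slc7a11 was near the floor at 0.531 ± 0.304 and 0.284 ± 0.157 CPM in KO and WT. Cytosolic heat shock genes had 2 of 10 above 0 (median -0.047), with Hspb1 at 32.2 ± 8.70 CPM in KO and 38.0 ± 7.02 CPM in WT, Hsp90aa1 at 43.9 ± 2.24 and 50.3 ± 19.2 CPM in KO and WT, and Hsph1 at 58.0 ± 17.9 and 71.5 ± 43.3 CPM in KO and WT. Mitochondrial chaperones and proteases had 4 of 6 above 0 (median 0.023), with Lonp1, Hspd1 and Trap1 at log2 fold changes of 0.041, -0.089 and 0.035; exons of Trap1 share 48 bases with Dnase1.

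Hspa5, Hsp90b1, Pdia4, Sdf2l1 and Creld2, 5 chaperones and folding enzymes of the ER lumen, tended to be high and low in the same mice. After the mean of each genotype was subtracted from log2 CPM, the Pearson r of their 10 pairs over 8 mice was 0.73 to 0.93, with a median of 0.86. The other 35 pairs of the 10 genes had a median of -0.032 and a range of -0.76 to 0.63, and all pairs of the 9203 tested genes at 10 CPM or more a median of 0.020. Without KO 2 and WT 3 the 10 pairs were at 0.66 to 0.95, and the other 35 ran from -0.87 (Xbp1 and Sdf2l1) to 0.65 (Hspa5 and Dnajb9), as far from 0 as some of the 10. Dnajb9, whose protein also works with BiP, was left out of the 5. Over 8 mice it had r of 0.63, 0.50, 0.29, 0.27 and 0.53 with them, in the order named above. All 45 pairs had a median of 0.14. The group of 5 was not set apart in the plan of comparisons, so its contrast with the other 35 pairs is a description only. These values describe the pairs, which share libraries and normalization.

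**Figure D3:**
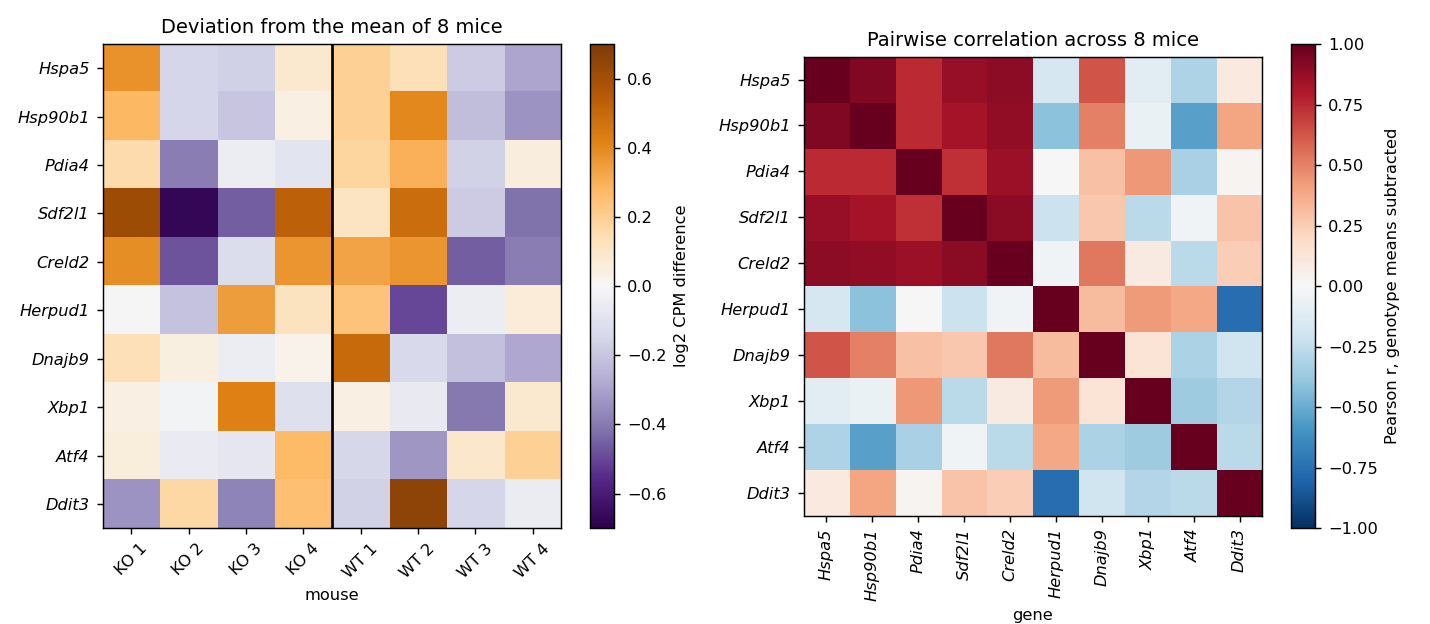
Left, deviation of each gene from its mean over 8 mice in log2 CPM (colour), by mouse, KO left of WT; right, Pearson r of each pair across the 8 mice after genotype means were subtracted. The 5 genes at the top form a block with r of 0.73 to 0.93, and Hspa5 is highest in KO 1 (0.375) and lowest in WT 4 (-0.291).

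Hspa5 and Hsp90b1 were the closest pair of the 45, with r = 0.93 (exact permutation of mice within genotype, two-sided, n = 8, p = 0.00694, adjusted over 45 pairs 0.130) and rho = 0.86 (exact permutation p = 0.0139, adjusted 0.156). Without the 2 mice farthest from the median of Hspa5, r was 0.96. The same step left the 10 pairs at 0.45 to 0.96, lowest for Hsp90b1 and Pdia4, at 0.75 with all mice. Sdf2l1 and Creld2 had r = 0.90 (exact permutation p = 0.00868, adjusted 0.130) and rho = 0.71 (exact permutation p = 0.0139, adjusted 0.156). None of the 45 pairs passed after adjustment for r or for rho. The 576 arrangements allow no p below 0.00174, so a single pair could not pass on its own.

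Pairs outside that block included the factors of the PERK and IRE1 arms. Ddit3 and Atf4, its inducer in the PERK arm, had r = -0.27 (exact permutation p = 0.608, n = 8) and rho = 0.024 (exact permutation p = 0.979). The sign of r for Ddit3 and Atf4 was positive among the 4 KO mice and negative among the 4 WT mice, too few in each genotype for a correlation. Xbp1 and Hspa5 had r = -0.11 (exact permutation p = 0.771, n = 8) and rho = -0.29 (exact permutation p = 0.554). Herpud1 had r = -0.16 with Hspa5 (exact permutation p = 0.689, n = 8) and rho = -0.21 (exact permutation p = 0.658). Without KO 2 and WT 3, r was -0.12 for Ddit3 and Atf4, -0.59 for Xbp1 and Hspa5 and -0.41 for Herpud1 and Hspa5. Adjusted over 45 pairs, p for these with 8 mice was 0.831 to 0.905 for r, and 0.870 to 1 for rho.

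Genes of the other pathway lists were set against Hspa5 in the same way. Of 17 other ER chaperones at 10 CPM or more, 16 had r above 0 with Hspa5 over 8 mice and 8 had r above 0.7 (47.1%, against 6.79% of 9202 genes), with a median of 0.70. Manf, an ER-resident protein that is secreted under stress, was closest among these 17 at 0.94. Pdia6, Dnajc10, Uggt1, Pdia3, Calr, Hyou1 and Canx followed at 0.87, 0.87, 0.85, 0.82, 0.80, 0.78 and 0.72. ER-associated degradation genes had a median of 0.21 over 19 genes, with 2 above 0.7, Ube2j1 at 0.946, higher than Manf, and Edem3 at 0.72. Sensors and switches had a median of 0.30 over 15 genes, with 3 above 0.7, Eif2ak2 at 0.84, Dnajc3 at 0.77 and Creb3l1 at 0.75. Targets of ATF4 and the integrated stress response had a median of -0.029 over 18 genes, of which none exceeded 0.7. Trib3 and Asns, both ATF4 targets, were at -0.63 and -0.64. Cytosolic heat shock genes had a median of 0.58 over 8 genes, with 2 above 0.7, Hsph1 at 0.79 and Hspb1 at 0.725. The values are descriptions, since genes of 1 library are not independent.

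**Figure D4:**
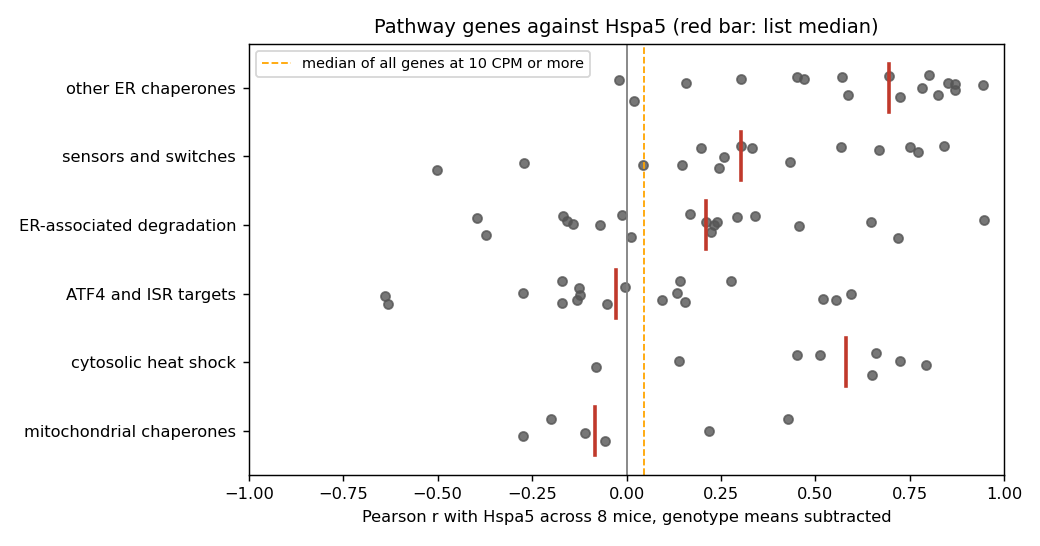
Pearson r with Hspa5 across 8 mice, genotype means subtracted (horizontal axis), for each gene at 10 CPM or more in the 6 pathway lists (points, spread vertically for legibility); red bars are list medians and the dashed line is the median of all genes, 0.045. Other ER chaperones have a median of 0.70 and ATF4 targets -0.029.

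The genes most like Hspa5 over the 8 mice, among 9202 at 10 CPM or more, were Fgf1 (r = 0.98), Gpm6a (0.98), Spock2 (0.97), Kifc3 (0.97) and Rbms3 (0.97). Spock2, an extracellular proteoglycan, was at 180.4, 20.3, 15.7 and 73.5 CPM in KO and at 123, 206, 34.5 and 17.5 CPM in WT, a much wider range than that of Hspa5. Hsp90b1 held rank 58 in this order, Creld2 rank 120, Sdf2l1 rank 159 and Pdia4 rank 467. The genes most like Ddit3 were Trmt61a (r = 0.998), Acy1 (0.98), Ctdnep1 (0.98), B3gat3 (0.97) and Gtpbp3 (0.97), and the best placed of the 10 genes for Ddit3 was Hsp90b1 at rank 2682.

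Gpm6a is also known from mesothelium, the sheet of cells that covers visceral fat, so mesothelial markers were looked up after these values were seen. Of 8 listed markers 7 were in the tables, Msln, Upk3b, Upk1b, Wt1, Lrrn4, Bnc1 and Rspo1, and none was at 0 in any mouse. Their summed level was 904, 195, 126 and 414 CPM in KO mice 1 to 4 and 651, 989, 277 and 208 CPM in WT mice 1 to 4. Msln alone, mesothelin, was at 247, 34.7, 31.5 and 129 CPM in KO and at 159.7, 235, 71.9 and 42.9 CPM in WT. The mice highest in mesothelial markers in each genotype were also those highest in the luminal chaperones, except that WT 1 and not WT 2 led for Hspa5 in WT.

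Over the 8 mice, with genotype means subtracted, the mean log2 level of the 7 markers had r = 0.96 with Hspa5, 0.95 with Hsp90b1, 0.88 with Sdf2l1, 0.84 with Creld2 and 0.69 with Pdia4. Without KO 2 and WT 3 these were 0.96, 0.94, 0.95, 0.90 and 0.83. Without the 2 mice farthest in marker level they were 0.94, 0.92, 0.78, 0.79 and 0.28, so the relation of Pdia4 rests on those mice. With Dnajb9, Ddit3, Xbp1, Atf4 and Herpud1 r was 0.46, 0.31, -0.24, -0.31 and -0.42, and for Xbp1 and Herpud1 it was -0.71 and -0.63 without KO 2 and WT 3. Without the 2 farthest mice Dnajb9, Ddit3, Xbp1, Atf4 and Herpud1 were at 0.77, 0.37, -0.34, 0.017 and 0.078. Spearman's rho was 0.93 for Hspa5, 0.90 for Hsp90b1, 0.79 for Sdf2l1, 0.69 for Creld2 and 0.67 for Pdia4. No p is given, because the markers were chosen after the pattern was seen, and their part in the chaperone levels was not tested. Per mouse the markers spanned a far wider range than the chaperones: 7.85-fold for Msln against 1.59-fold for Hspa5.

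**Figure D5:**
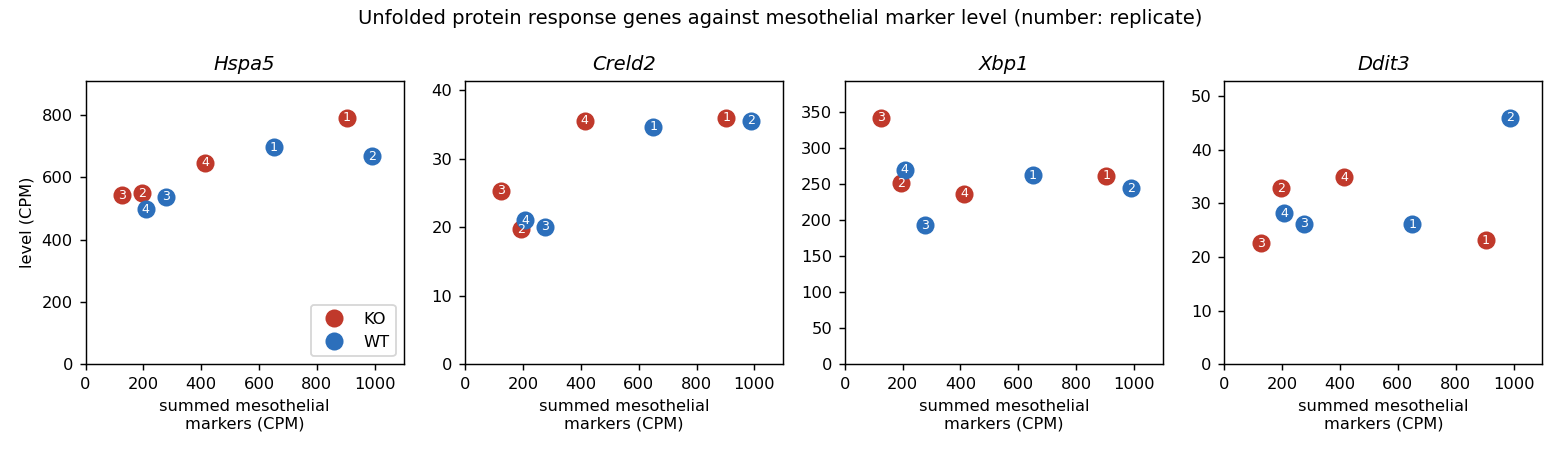
Level in CPM of Hspa5, Creld2, Xbp1 and Ddit3 (vertical axes) against the summed level of 7 mesothelial markers in CPM (horizontal axis) in 4 KO mice (red) and 4 WT mice (blue), numbered by replicate. Hspa5 is at 790.3 CPM where the markers sum to 904 CPM (KO 1) and at 498 CPM where they sum to 208 CPM (WT 4), and Xbp1 is highest, at 342 CPM, where they are lowest, at 126 CPM (KO 3).

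With the mesothelial marker level as a covariate, an alternative added after these values were seen, 0 of the 10 genes and 0 of all genes passed in edgeR's quasi-likelihood test. The log2 fold change was then 0.17 for Hspa5 (SE 0.11, unadjusted p = 0.16), 0.10 for Hsp90b1, 0.24 for Sdf2l1 and 0.24 for Creld2. Pdia4, the other luminal gene of that group, stayed below 0 at -0.12 (SE 0.12). Ddit3 was at -0.077, Atf4 at 0.074, Xbp1 at 0.14, Herpud1 at 0.068 and Dnajb9 at 0.10. Each of the 10 genes had an adjusted p of 0.9999 in this fit.

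The marker lists of other cell types were compared with the 10 genes by the same r; apart from the epithelial list, no listed marker was at 0 in any library. Xbp1 had r = 0.90 with 8 adipocyte markers over the 8 mice (exact permutation of mice within genotype, two-sided, p = 0.0104, adjusted over 80 relations 0.243), rho = 0.86 (exact permutation p = 0.0156, adjusted 0.382) and r = 0.81 without the 2 farthest mice. The summed level of those markers was 46760, 40010, 50990 and 41120 CPM in KO mice 1 to 4 and 49630, 38960, 36490 and 49550 CPM in WT mice 1 to 4; KO 3 was highest in both and WT 3 lowest in both. Herpud1 had r = 0.85 with 8 plasma cell markers (exact permutation p = 0.033, adjusted 0.463; rho = 0.86, exact permutation p = 0.0191, adjusted 0.382; 0.91 without the 2 farthest mice). The 8 markers summed to 33.8 to 74.2 CPM in KO and 24.8 to 69.0 CPM in WT. Igj, the immunoglobulin J chain of plasma cells, was at 2.45, 7.16, 31.4 and 9.99 CPM in KO and at 12.7, 1.57, 2.59 and 31.3 CPM in WT. Not all 8 markers ranked the mice as Igj did. Sdc1 was highest in KO 4, at 39.46 CPM. It was lowest in WT 1, at 14.65 CPM, the WT mouse highest in Herpud1. Prdm1 was lowest among KO mice in KO 3, at 2.737 CPM, the KO mouse highest in Herpud1.

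Atf4 was compared with immediate early genes, which respond within minutes to handling as well as to signals. With 8 such genes, which summed to 135.9 to 225.2 CPM in KO and 140.7 to 261.2 CPM in WT, r was 0.92 (exact permutation p = 0.0122, n = 8, adjusted over 80 relations 0.243) and rho 0.88 (exact permutation p = 0.00694, adjusted 0.278), with r = 0.86 without the 2 farthest mice. Fos was at 18.9, 4.47, 7.71 and 21.3 CPM in KO and at 6.71, 6.65, 15.3 and 18.1 CPM in WT. Not all 8 genes ranked the KO mice as Fos did. Egr1 was at 17.8, 18.6, 13.85 and 13.9 CPM in KO and at 10.5, 12.8, 21.3 and 26.4 CPM in WT. Its highest KO mouse was KO 2, whereas Fos and Atf4 were highest in KO 4. Atf4 also had r = 0.76 with 8 macrophage markers (exact permutation p = 0.0347, n = 8, adjusted 0.463; rho = 0.64, exact permutation p = 0.111, adjusted 0.611), and r was 0.58 without the 2 farthest mice. Ddit3 had a negative r with 6 endothelial markers, which summed to 612.1 to 1051 CPM in KO and 681 to 1041 CPM in WT (r = -0.88, exact permutation p = 0.00174, the smallest the 576 arrangements give, adjusted 0.139; rho = -0.88, exact permutation p = 0.00347, adjusted 0.278), and r was -0.62 without the 2 farthest mice. Creld2 had a negative r with 6 smooth muscle markers, which summed to 324 to 376 CPM in KO and 386 to 898 CPM in WT (r = -0.86, exact permutation p = 0.00868, adjusted 0.243; rho = -0.76, exact permutation p = 0.0312, adjusted 0.440; r = -0.87 without the 2 farthest mice). Hspa5 had r = -0.75 with the smooth muscle markers (exact permutation p = 0.0434, n = 8, adjusted 0.496; rho = -0.67, exact permutation p = 0.109, adjusted 0.611; r = -0.69 without the 2 farthest mice). Of 5 smooth muscle markers at 10 CPM or more, 1, Acta2, had r above 0 with Hspa5, at 0.43. Myh11, Rgs5, Tagln and Mylk were at -0.90, -0.74, -0.35 and -0.29. Each r used the mean log2 level of a list, which can rank mice otherwise than the sum. By sum WT 2 was highest in smooth muscle markers, at 898 CPM, and it was also the highest WT mouse in Creld2. By mean log2 level WT 3 was highest, at 6.00. None of the 80 relations between 8 marker lists and the 10 genes passed after adjustment. A single relation could not pass on its own: at the smallest p the arrangements give, the adjusted p was 0.139. The part of these cells in the levels was not tested.

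Across the genome, 49 genes had ERSE or ERSE-II in a RefSeq promoter, and 23 of them were tested, 4 of the 10 genes above and 19 others. Among the 19 were Calr and Canx, the lectin chaperones of the ER, and Syvn1, which encodes the ubiquitin ligase HRD1, but also Acacb, an acetyl-CoA carboxylase, and Hnrnpa3, an RNA-binding protein. Of the 19, 10 lay above 0 on the log2 scale and 9 below, with a median of 0.0071, and none was called. Calr was at 644, 499.7, 466 and 526 CPM in KO and at 485, 619, 479 and 449.5 CPM in WT, and Canx at 372, 369, 330 and 342 CPM in KO and at 366, 397, 308 and 302 CPM in WT. The log2 fold changes of the 19 ran from -0.28 (Derl3, at a mean of 1.37 CPM in KO and 1.66 CPM in WT) to 0.27 (Adcy3, an adenylyl cyclase).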

How the data were processed

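The authors deposited raw counts by gene symbol in a separate table for each mouse; the values are whole numbers with unequal totals. Tools named in the submitters' processing notes are STAR 2.4.0g1, FastQC 0.11.2, Cufflinks, featureCounts and edgeR, with mm10 as genome. Which tool did what, and how strand was handled, is not given in the sources used here. Lengths and positions of exons were read from the merged annotation that the authors deposited. Groups came from the labels. No 2 libraries of a genotype agreed within sampling noise (smallest chi-square per degree of freedom 63.0).

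Genes were kept by filterByExpr (14493 of 23212), scaled by TMM (factors 0.966 to 1.05) and compared by edgeR 4.0.16 (R 4.3.3) with the robust quasi-likelihood F test, no covariate, and Benjamini-Hochberg adjustment at 0.05. The SE is the one the F statistic implies. Correlations used log2 CPM (prior count 2). The procedure was tested on simulated counts. Alternatives were other size factors and filters, DESeq2 1.42.0, limma 3.58.1 voom, non-robust dispersion, the replicate number as a block, libraries left out and, added later, a mesothelial covariate.

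The 10 genes, the pathway and marker lists and the tests were chosen with earlier results of these data known; the mesothelial list and the promoter motifs were added after the tables were opened. Genes were named by rule: the 10 genes, the 3 with the smallest p in each pathway list, the 5 most like Hspa5 and Ddit3, and leading markers; the other genes were named after their values were seen. Of the listed symbols, Vimp was matched as H47 and Mzb1 as 2010001M09Rik. The targeted gene is not reported here.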

Additional observations from a re-analysis of the deposited data

Results flagged for a closer look

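Ddit3 in WT 2 lay far from the other WT mice: its log2 CPM was 5.52 there, against 4.71, 4.72 and 4.82 in WT 1, WT 3 and WT 4, and the gap made up 0.869 of the range of the group. Of 20 groups of 4 mice examined, 10 genes in each genotype, this was the only 1 so far apart, where chance gives about 1. WT 2 was also the mouse with the lowest Atf4 and Herpud1 among the 8, at 110.0 and 56.3 CPM.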

How the results depend on the processing

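No setting called any of the 10 genes. Over all genes 2 were called; 0 were called with total counts, no low-count filter, limma voom, the replicate block, the mesothelial covariate or without KO 2 and WT 3 together, 17 with DESeq2, and 0 (range 0 to 0) without each mouse. The replicate numbers share only a number: same-numbered deviations correlated from -0.32 to 0.117, and the replicate block changed no call among the 10. Without each mouse, the count above 0 ran from 3 to 8. The counts at an unadjusted p under 0.05 and with groups apart each ran from 0 to 1 (Dnajb9 without WT 1). Over all genes without each mouse, 1.66% to 3.97% had an unadjusted p under 0.05. Groups were apart in 328 of 14683 genes (without KO 4) to 710 of 14582 genes (without KO 2). Log2 fold changes that turned sign ran, without each mouse, from -0.051 to 0.16 for Hspa5, -0.14 to 0.11 for Hsp90b1, -0.14 to 0.26 for Sdf2l1, -0.062 to 0.21 for Creld2, -0.014 to 0.22 for Herpud1, -0.038 to 0.26 for Dnajb9, -0.28 to 0.077 for Ddit3, -0.024 to 0.084 for Lonp1, -0.069 to 0.10 for Trap1, -0.35 to 0.012 for Hsp90aa1, -0.56 to 0.062 for Hsph1 and -0.27 to 0.12 for Hspd1. Without KO 2 and WT 3, Dnajb9 was at -0.024, Lonp1 at -0.079 and Trap1 at -0.036; with the mesothelial covariate, Hsp90b1 was at 0.099, Hsph1 at 0.14 and Hspd1 at 0.0021. The cause was not tested. Medians also turned sign without single mice: -0.051 to 0.13 for the 10 genes, -0.054 to 0.067 for sensors, -0.084 to 0.061 for other ER chaperones, -0.054 to 0.011 for ER-associated degradation, -0.13 to 0.0030 for cytosolic heat shock and -0.11 to 0.12 for mitochondrial chaperones. The median of ATF4 targets ran from 0.021 to 0.093. Each of the 10 genes had at least 523 counts per library, so depth limited them little.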
